A study of Mus musculus with 6 samples.

Results

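A set of 10 genes that regulate or mark the trophoblast, the lineage that forms the outer wall of the blastocyst and later the placenta, was examined in RNA of mouse induced pluripotent stem cells (iPSCs, somatic cells returned to pluripotency by reprogramming). The genes were taken by name and all 10 were found among the 25567 entries of the count table, of which 24421 are genes and 1146 are transposable element subfamilies. Serum response factor (SRF) is a transcription factor that controls cytoskeletal and immediate-early genes. The table holds 3 libraries of SRFΔ/Δ iPSCs (SRF KO) and 3 of SRFf/f iPSCs (WT), the latter carrying the conditional allele. Both were grown in medium with serum and given no other treatment that the labels name. The labels do not say whether the replicates of a group are separate clones or cultures, so the p-values measure only the spread between these libraries, which may be technical.

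In the mouse blastocyst the outer cells become trophectoderm while the inner cells stay pluripotent. TEAD4 switches on CDX2 and GATA3 in the outer cells, and CDX2 and the pluripotency factor OCT4 hold each other back. ELF5, EOMES and AP-2γ (encoded by Tfap2c) then maintain trophoblast stem cells, HAND1 directs them towards giant cells, and GATA2 acts with GATA3 on placental genes. AP-2γ is also made in naive pluripotent cells and primordial germ cells, so that its RNA alone does not mark trophoblast.

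In all, 4 members were lower in SRF KO and 1 was higher. Krt7 fell 5.39-fold, Rhox9 3.60-fold, Rhox6 2.94-fold and Tfap2c 2.15-fold, while Plet1 rose 1.46-fold. Cdx2, Gata2, Gata3 and Hand1 did not pass the test, and Elf5 had too few counts to be tested. Thus 4 of 9 tested members were called lower, where 20.7% of all 15611 entries tested were, and 1 was called higher, where 20.4% were. A call means an adjusted p under 0.05 in the quasi-likelihood test of edgeR, adjusted over all entries tested by the method of Benjamini and Hochberg. The median log2 fold change (SRF KO over WT, as throughout) of the 9 was -0.43, beside -0.02 for all entries. In bulk RNA, fewer cells that express a gene and less of its RNA per cell cannot be told apart.

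Rhox6 and Rhox9 were formerly named placenta-specific homeobox genes, and lie in the Rhox cluster at chrX:37826910-37829857 and chrX:37899097-37901770 (GRCm38, GENCODE M21, as for all gene positions here). Their annotated coding sequences, both of 681 bases without the stop codon, were identical at 90.6% of positions. A stretch of 161 bases, starting at base 167 of each, was the same in both, and is longer than the 150-base reads. The stretch is printed here with its flanks (bases 137 to 357 of each coding sequence, GENCODE M21 transcripts), because a read from it cannot be given to either gene by itself. Capitals mark the 11 positions at which the genes differ.
Rhox6: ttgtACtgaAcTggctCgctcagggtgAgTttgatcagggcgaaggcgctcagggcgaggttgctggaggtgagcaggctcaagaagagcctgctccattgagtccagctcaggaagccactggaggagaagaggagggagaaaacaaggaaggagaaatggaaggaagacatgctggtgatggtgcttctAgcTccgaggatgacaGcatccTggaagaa
Rhox9: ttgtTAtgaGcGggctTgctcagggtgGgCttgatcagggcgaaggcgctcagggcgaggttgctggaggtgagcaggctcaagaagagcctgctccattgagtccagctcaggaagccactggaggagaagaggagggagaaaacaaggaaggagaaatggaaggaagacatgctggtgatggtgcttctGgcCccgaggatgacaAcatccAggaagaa
All 11 differences lay in the flanks. Words of 100 bases, shorter than the reads, were compared over all annotated transcripts of each gene. Of these, 6.81% in Rhox6 and 2.45% in Rhox9 occurred in the other gene, and words of read length would share less. The single values of this pair therefore depend in part on the counting rule, and their sum is given beside them. No 100-base word of the other members was found in a transcript of another gene, except 4.76% of those of Plet1, which its antisense gene Plet1os shares on the opposite strand.

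RefSeq windows of the 250 bases before a start site (GRCm38.p6) were matched by symbol for 6 of the 10 members, in 8 windows, and not for Tfap2c, Hand1, Rhox6 and Rhox9. Those of Krt7, which fell most among the 9 members tested, and Plet1, the member that rose, are shown. The first lies at chr15:101412153-101412402 and the second at chr9:50494275-50494524, both on the plus strand, and part of the Krt7 window is an exon of a non-coding Krt7 transcript in GENCODE M21. Capitals mark matches to AP-2 (GCCNNNGGC) in Krt7 and to a TATA box (TATAAA) in Plet1.
Krt7: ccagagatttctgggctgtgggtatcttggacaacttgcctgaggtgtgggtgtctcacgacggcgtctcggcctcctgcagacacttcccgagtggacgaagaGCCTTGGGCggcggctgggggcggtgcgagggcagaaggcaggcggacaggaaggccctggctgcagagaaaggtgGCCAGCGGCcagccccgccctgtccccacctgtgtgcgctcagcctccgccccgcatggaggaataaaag
Plet1: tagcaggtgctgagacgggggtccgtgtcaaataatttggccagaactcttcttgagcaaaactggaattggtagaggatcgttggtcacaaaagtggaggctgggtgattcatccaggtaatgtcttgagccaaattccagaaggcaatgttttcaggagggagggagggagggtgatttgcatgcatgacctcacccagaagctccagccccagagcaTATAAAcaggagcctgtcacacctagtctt
Searched on both strands, the Krt7 window held 2 AP-2 matches and no TATA box. The Plet1 window held a TATA box at -30 to -25 from the start site and no AP-2 match. A match to AP-2 was found in 4 of the 8 windows, those of Cdx2, Gata3, Krt7 and 1 of the 2 of Gata2, against 13.7% of all 32851 windows and 20.5% of the windows of genes tested. TATA boxes stood in 12.4% of all windows and 6.72% of those of genes tested. The CArG box, the element that SRF binds, was in none of the 8 windows and in 1.47% of all windows (1.12% for genes tested), and the window of Srf itself held 2. The TEAD letters GGAATG stood in 1 window of Elf5 and 1 of Gata2, against 12.6% of all windows and 10.9% of those of genes tested. The letters AGATAA, which GATA factors bind, were in none of the 8, against 9.99% of all windows and 5.76% of those of genes tested. None of the matches in the members' windows overlapped a match to another motif. These matches describe letters and are not evidence of binding.

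Total counts were between 26321602 and 36680156 per library, so that 3 counts, the most that a count of 0 allows, come to between 0.0828 and 0.117 CPM (reads of an entry relative to the library's total, with TMM scaling, the trimmed mean of M values). Such limits cover counting error only. Srf was lower in the SRF KO libraries (log2 fold change -3.12, SE 0.13, edgeR adjusted p 8.1e-09), as the labels say. On the second principal component (10.4% of the variance) WT replicate 2 lay at -23.1, while the other WT libraries lay at 9.28 and 15.5. SRF KO replicate 2 lay at -7.38 and the other SRF KO libraries at 2.94 and 2.75, so that replicate 2 was lowest in both groups. The 8 listed pluripotency markers were all detected, with the highest CPM for Dppa5a, Tdgf1 and Pou5f1. Their summed level was 4610 to 4710 CPM in SRF KO and 5490 to 5940 CPM in WT. Of the 8, 4 were called lower (50%) and 1 higher (12.5%), beside 20.7% and 20.4% of all entries tested. Over the 9 primitive endoderm markers the sum was 1600 to 1730 CPM in SRF KO against 129 to 141 CPM in WT, most of it from Lama1, Cubn and Dab2. The 9 fibroblast markers summed to 842 to 1010 CPM against 415 to 472 CPM, with the highest CPM for Col1a1, Col1a2 and Col3a1. All 9 genes of each of these 2 lists were called higher, beside 20.4% of all entries tested. The marker lists were chosen with earlier results of these data known, so that these counts are not a test. None of these markers was at 0 in any library, and their part in the results below was not tested.

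The transcription factors are given first. Tfap2c (ENSMUSG00000028640.11, chr2:172549593-172558622) encodes AP-2γ. It had 72.2, 65.2 and 75.6 CPM in WT replicates 1 to 3 and 33.6, 31.0 and 34.7 CPM in SRF KO replicates 1 to 3. Every SRF KO library was thus below every WT library, and the groups lay far apart relative to their spread. The means were 71.0 ± 5.33 CPM in WT and 33.1 ± 1.89 CPM in SRF KO (SD, n = 3). On the log2 scale the difference was -1.10 (SE 0.07), with an edgeR adjusted p of 2.85e-07. It ranked 202 from the lowest of 15611.

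Cdx2 (ENSMUSG00000029646.3, chr5:147300805-147307270), the homeobox factor that specifies trophectoderm, was near the limit of detection. It had 16, 9 and 18 counts in the WT libraries and 10, 7 and 12 in the SRF KO libraries, which is 0.473 ± 0.141 and 0.350 ± 0.0775 CPM (SD, n = 3). The groups overlapped. The log2 fold change was -0.43 with a 95% interval of -1.15 to 0.30 (edgeR adjusted p 0.336), so that a fall to 50% of the WT level, or a small rise, lay within the interval.

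Elf5 (ENSMUSG00000027186.14, chr2:103411688-103450989) is an ETS factor of trophoblast stem cells. It was the member with the lowest counts, 4, 5 and 2 in WT and 0, 0 and 1 in SRF KO. All 3 SRF KO libraries and 1 WT library were at or under 3 counts, and it was the only member with any such library. The summed counts were 11 and 1, a scaled ratio of WT to SRF KO of 9.99 with an exact 95% interval of 1.45 to 430, which covers counting error only. Elf5 was removed by the filter on low counts. Fitted without that filter, it had an edgeR adjusted p of 0.0516.

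The zinc finger factors GATA2 and GATA3 act in trophoblast and also in blood, ear and nervous system. Gata2 (ENSMUSG00000015053.14, chr6:88193891-88207032) had 4.20, 3.42 and 3.94 CPM in WT and 3.01, 3.32 and 3.73 CPM in SRF KO. These values overlapped, with a log2 fold change of -0.20 and a 95% interval of -0.50 to 0.09 (edgeR adjusted p 0.251). Gata3 (ENSMUSG00000015619.10, chr2:9857078-9890034) had 21, 6 and 8 counts in WT and 12, 7 and 13 in SRF KO, WT replicate 1 holding the most. Its log2 fold change was 0.02 (edgeR adjusted p 0.978). The 95% interval was wide, -0.86 to 0.90, so that a change of nearly 2-fold either way lay close to its ends. Gata3 was at 0.59 without WT replicate 1 and between -0.19 and 0.23 without any other library, never past the threshold.

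Hand1 (ENSMUSG00000037335.13, chr11:57828705-57832818) encodes a basic helix-loop-helix factor of giant cells, and of mesoderm and heart. It had 32, 21 and 38 counts in WT and 26, 34 and 18 in SRF KO. The highest and the lowest CPM of all 6 libraries, 1.33 in WT replicate 3 and 0.622 in SRF KO replicate 3, belonged to different groups, but the other values were mixed. The log2 fold change was -0.08 (95% interval -0.71 to 0.54, edgeR adjusted p 0.849), and it was above 0 without SRF KO replicate 3 or without WT replicate 3.

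The X-linked homeobox genes fell together. Rhox6 (ENSMUSG00000006200.3) had 88, 60 and 47 counts in WT and 17, 12 and 31 in SRF KO, or 2.13 ± 0.432 and 0.719 ± 0.318 CPM (SD, n = 3). No SRF KO library reached the lowest WT library, although SRF KO replicate 3, at 1.07 CPM, came nearest to WT replicate 3, at 1.64 CPM. Its log2 fold change was -1.55 (SE 0.27, edgeR adjusted p 0.00083). Rhox9 (ENSMUSG00000068048.8) had 82, 60 and 57 counts in WT and 17, 14 and 19 in SRF KO, with tighter groups of 2.20 ± 0.183 and 0.606 ± 0.0679 CPM (SD, n = 3). Its log2 fold change was -1.85 (SE 0.19, edgeR adjusted p 1.61e-05). When the counts of both were summed into 1 entry, the log2 fold change was -1.70 (SE 0.19, edgeR adjusted p 3.45e-05), and this value is the same however reads were divided between them.

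Their fall was not shared by the X chromosome at large. The 512 X-linked genes tested had a median log2 fold change of -0.004, with 111 called higher and 101 lower. Of 28 other Rhox genes listed, 27 were in the table and 23 had at most 3 counts in every library, 16 of them 0 throughout. Many are recent copies of each other, so that their reads may have been dropped or split. Only Rhox5 and Rhox13 could be tested. Rhox5, the founding member of the cluster and the neighbour of Rhox6, had 27.6 ± 0.817 CPM in WT and 23.7 ± 1.35 CPM in SRF KO (SD, n = 3). It fell by 0.22 on the log2 scale (SE 0.07, edgeR adjusted p 0.0209), and none of these genes was called when SRF KO replicate 3 was left out. Rhox13 did not pass the test (0.68, edgeR adjusted p 0.119).

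Krt7 (ENSMUSG00000023039.17, chr15:101411043-101430313) encodes a type II keratin of simple epithelia that is widely used to mark trophoblast. It had 102, 76 and 102 counts in WT and 18, 17 and 12 in SRF KO. In CPM this was 2.82, 2.95 and 3.56 against 0.669, 0.642 and 0.415, so that every WT library held more than 4 times the level of every SRF KO library. On the log2 scale this was -2.43 (SE 0.21, edgeR adjusted p 3.78e-06), which ranked 8 from the lowest of all 15611 entries tested. Without any 1 library it was between -2.55 and -2.23.

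Plet1 (ENSMUSG00000032068.14, chr9:50494525-50505482), placenta expressed transcript 1, encodes a surface protein of extraembryonic ectoderm and some epithelial progenitors. It had 12.8, 13.2 and 13.2 CPM in WT and 19.7, 19.3 and 18.1 CPM in SRF KO, and all 3 SRF KO libraries lay above all WT libraries. Its log2 fold change was 0.54 (SE 0.07, edgeR adjusted p 0.000105). Whether counting used strand is not stated in the sources used here, but Plet1os held at most 8 counts in any library, against at least 339 for Plet1.

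**Figure D1:**
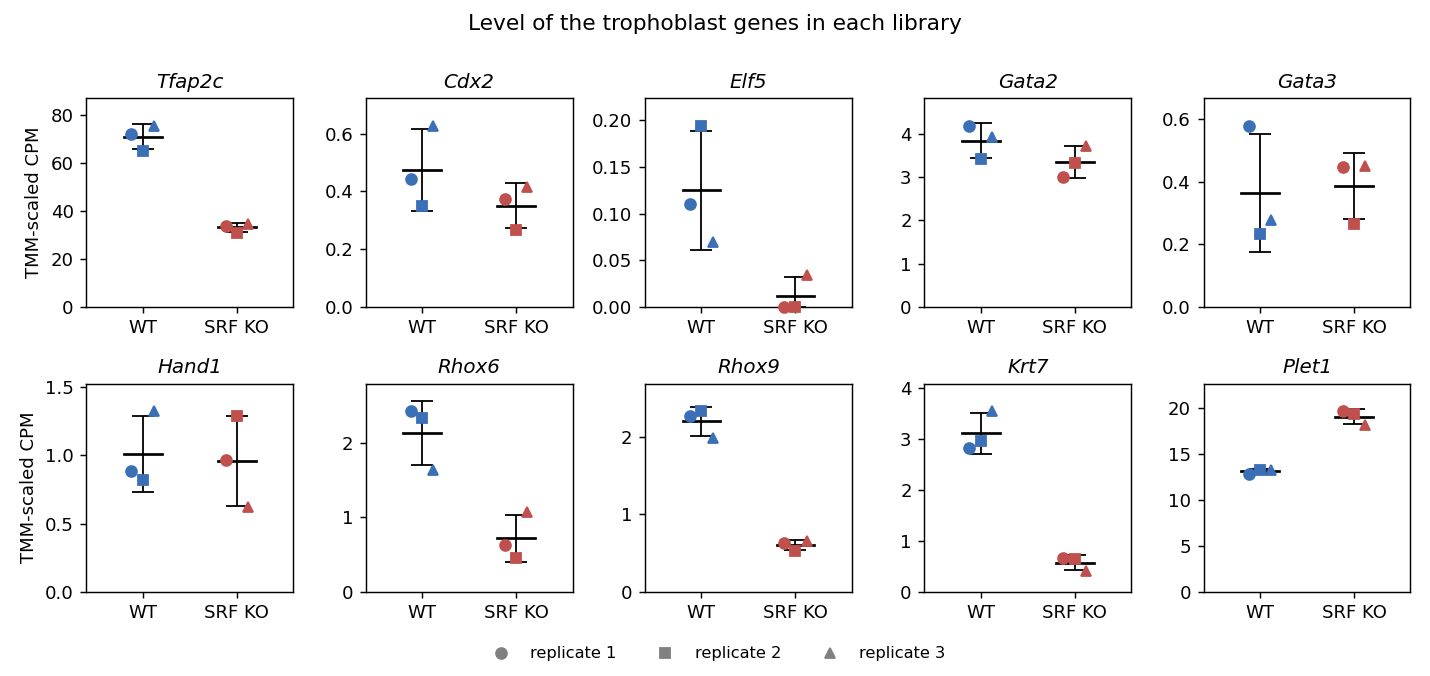
TMM-scaled CPM (y axis, linear from 0, a scale of its own for each gene) of the 10 genes in the 3 WT (blue) and 3 SRF KO (red) libraries; symbols mark replicates 1 to 3, horizontal lines the mean and bars the SD, which is drawn down to 0 at most for Elf5. The groups lie apart for Tfap2c, Rhox6, Rhox9 and Krt7 (WT above), for Plet1 (SRF KO above) and, at no more than 5 counts, for Elf5 (WT above), and overlap for the others.

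Every WT library thus lay above every SRF KO library for Tfap2c, Krt7, Rhox6 and Rhox9, 4 of the 9 members tested, beside 26.1% of all entries tested. The 9 fold changes ranged from -2.43 to 0.54, and those of the 4 members that fell lay below the range that holds the central 90% of all entries, -0.64 to 1.03.

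**Figure D2:**
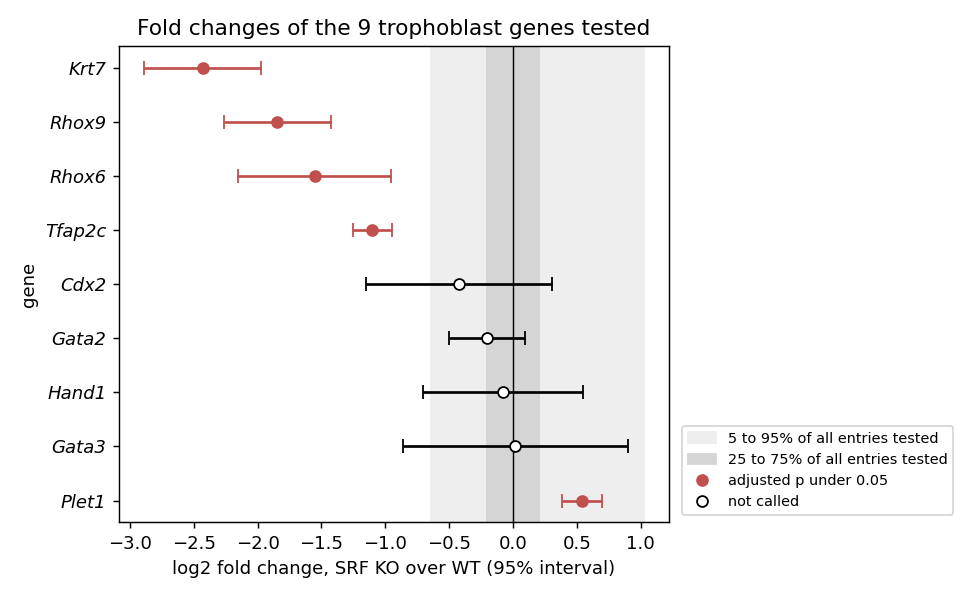
Log2 fold change of SRF KO over WT (x axis) with its 95% interval for each of the 9 genes tested (y axis), filled red where the adjusted p was under 0.05; grey bands hold the central 50% and 90% of all 15611 entries tested. Krt7, Rhox9, Rhox6 and Tfap2c lie left of the wider band, the intervals of Cdx2, Gata2, Hand1 and Gata3 cross 0, and Plet1 lies to the right of 0 within the wider band.

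Levels of different genes were compared per kilobase of annotated exon. In WT, Tfap2c was the highest at 19.3 ± 1.45 CPM per kb, followed by Plet1 at 6.71 ± 0.114 and Rhox6 at 2.11 ± 0.427 (SD, n = 3). Rhox9, Gata2, Hand1 and Krt7 came next, between 0.882 and 0.441 CPM per kb, and the libraries of Gata2 overlapped those of Hand1, and those of Hand1 overlapped those of Krt7. Cdx2 at 0.209, Gata3 at 0.0915 and Elf5 at 0.0212 CPM per kb were the lowest, with no overlap between neighbours. The order differed in SRF KO, where Plet1 at 9.77 ± 0.429 CPM per kb and Tfap2c at 9.0 ± 0.513 overlapped (SD, n = 3) and Krt7, at 0.0816, stood between Gata3 and Elf5, overlapping the former. Rhox6, Gata2 and Hand1 overlapped there at 0.712, 0.622 and 0.480 CPM per kb, above Rhox9 at 0.243 and Cdx2 at 0.155. The exon length of Krt7 includes retained introns, which lowers its value on this scale. Rhox6 and Rhox9 had similar summed counts, 195 and 199 in WT and 60 and 50 in SRF KO. Their annotated exon lengths were 1010 and 2488 bases, so that their order on this scale rests largely on the annotation. Of all reads counted for the 10 members, Tfap2c took 71.6% to 74.0% in WT and 54.3% to 57.6% in SRF KO, and Plet1 12.9% to 14.5% and 30.1% to 33.9%.

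Relatives of the members in the same gene families were compared next. Of 11 such genes, 7 could be tested, of which 2 were higher and 1 lower in SRF KO. These are 28.6% and 14.3% of the 7, beside 20.4% and 20.7% of all entries tested. Gata4 and Gata6, which drive primitive endoderm, were 3.78 ± 0.521 and 4.25 ± 0.339 CPM in WT and 58.4 ± 3.69 and 53.9 ± 3.34 CPM in SRF KO (SD, n = 3). Their log2 fold changes were 3.95 and 3.66 (edgeR adjusted p 7.3e-11 and 5.54e-11), beside -0.20 for Gata2 and 0.02 for Gata3. Elf3, an epithelial ETS factor, fell from 64.0 ± 2.93 to 26.5 ± 0.494 CPM (SD, n = 3). Its log2 value was -1.27 (SE 0.06, edgeR adjusted p 2.05e-08). When SRF KO replicate 3 was left out, 2 of these genes rather than 1 were called lower and 3 rather than 2 were called higher.

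Other genes of the trophoblast stem cell network, many of which act in pluripotent cells too, were taken from a list. Of its 14 genes, all tested, 7 were lower, 1 was higher and 6 did not pass, with a median log2 fold change of -0.23. The shares lower and higher were 50% and 7.14%, beside 20.7% and 20.4% of all entries tested. In most alternative fits 6 rather than 7 were called lower. Id2, an inhibitor of basic helix-loop-helix factors, fell from 25.6 ± 1.08 to 12.2 ± 0.632 CPM (SD, n = 3), or by 1.07 on the log2 scale (SE 0.07, edgeR adjusted p 6.17e-07). Sox15, an HMG box factor of giant cells, had -1.23, the nuclear receptor gene Esrrb -0.49 and Arid3a -0.57 (edgeR adjusted p 7.65e-06, 7.42e-06 and 5.98e-05). Klf5, the only one called higher and named for that reason after its value was seen, had 0.33 (edgeR adjusted p 0.000785). Eomes and Tead4, both central to trophectoderm, had 0.09 and -0.15 and did not pass (edgeR adjusted p 0.382 and 0.155).

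Among 10 genes of simple epithelium, 8 were tested, 2 were lower and none was higher, with a median of -0.12. The share lower, 25%, was near the 20.7% of all entries tested, and 20.4% of all entries were higher. The 2 lower genes were the adhesion gene Epcam at -0.31 and the keratin gene Krt18 at -0.33 (edgeR adjusted p 0.000554 and 0.00719). Krt8, the type II keratin that pairs with it and a relative of Krt7, had 0.12 (SE 0.07, edgeR adjusted p 0.209).

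Genes of differentiated trophoblast moved both ways. Of 20 listed, 12 were tested, 4 were higher, 5 were lower and 3 did not pass, with a median of -0.24. The shares higher and lower were 33.3% and 41.7%, beside 20.4% and 20.7% of all entries tested. Those called lower numbered between 4 and 6 in the alternative fits. Of the 20, 6 had at most 3 counts in every library. Among them Tpbpa, Prl3b1 and Ctsq, defining markers of placental cell types, had 0 counts in all 6 libraries. Dlx3, a homeobox gene of the labyrinth, fell from 3.22 ± 0.191 to 1.31 ± 0.0788 CPM (SD, n = 3), or by 1.29 on the log2 scale (edgeR adjusted p 3.45e-05). The imprinted gene Peg10 had 755 ± 27.7 CPM in WT and 1534 ± 8.43 CPM in SRF KO (SD, n = 3), a rise of 1.02 on the log2 scale (edgeR adjusted p 2.77e-08). Cited2 rose by 0.78 and Prl2c2 by 1.64 on the log2 scale (edgeR adjusted p 2.56e-06 and 0.000136). Prl2c2 belongs to a group of near-identical prolactin-like genes, so that its value is uncertain. The remaining calls, named after their values were seen, were Hsd3b6 (2.07), Ascl2 (-0.80), Nrk (-0.44), Slc16a3 (-0.34) and Plac8 (-0.35). Hsd3b6 rested on few counts, 10, 17 and 16 in SRF KO and 4, 4 and 3 in WT (SE 0.39).

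**Figure D3:**
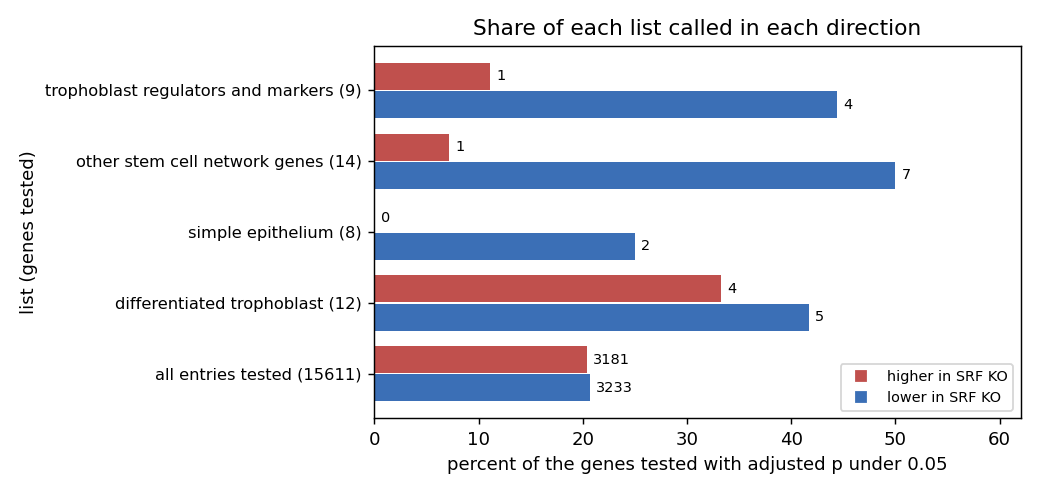
Percent of the genes tested on each list (x axis) that were called higher (red) or lower (blue) in SRF KO (adjusted p under 0.05), with the number of genes beside each bar and the number tested in parentheses. Among the members 4 of 9 were lower and 1 higher, among the other network genes 7 of 14 and 1, beside 20.7% and 20.4% of all entries.

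The members' calls were recomputed with other tools, scalings and filters and without each library. The same 4 members were called lower and Plet1 higher in each of these 12 fits. The summed entry of Rhox6 and Rhox9 was called lower as well.

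**Figure D4:**
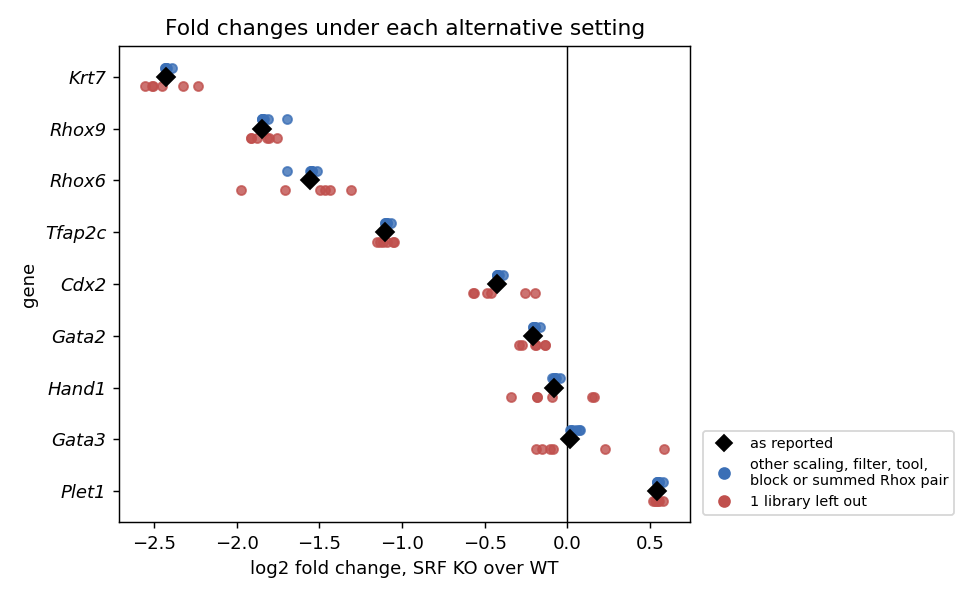
Log2 fold change of SRF KO over WT (x axis) of each gene tested (y axis) as reported (black), under other scalings, filters, tools, a replicate block or the summed Rhox pair (blue) and with 1 library left out (red). Krt7, Rhox9, Rhox6, Tfap2c and Plet1 stay on their side of 0 in every fit, and Hand1 and Gata3 do not.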

How the data were processed

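RNA of 3 SRF KO and 3 WT iPSC samples was sequenced by the authors as paired reads, and reads that were empty, of low quality or adaptor were taken out, per the labels' protocols. The deposited table holds raw read counts per gene and per transposable element subfamily, without normalization. The submitters' processing notes name mm10 and DESeq2, and the aligner, counting program, annotation and strand setting are not given in the sources used here. Columns were matched to samples by name, and no column was left unused. No pair of replicates agreed within sampling noise (chi-square per degree of freedom 1.79 to 14.6).

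Genes and subfamilies entered 1 fit in R 4.3.3 with edgeR 4.0.16: filterByExpr (minimum count 10), TMM scaling, the quasi-likelihood test with group as the only term, and Benjamini-Hochberg adjustment over 15611 entries. Elf5 did not pass the filter. Intervals are 95%. DESeq2 1.42.0, RLE factors, unscaled totals, no filter, gene entries alone, a replicate block, summed Rhox6 and Rhox9 and leaving out each library were alternatives. Scripts were tested on simulated data. Same-numbered libraries deviated from their group means with positive correlations (0.0424, 0.203 and 0.0965), and 4 of 6 libraries correlated best with their own number. Positions and exon lengths come from GENCODE M21 and promoters from RefSeq, both GRCm38. The members and lists were chosen with earlier results of these data known. From each list up to 4 called genes with the smallest adjusted p are named, and from each marker list up to 3 with the highest CPM. Other names were chosen after their values were seen. The list of mesoderm genes is not reported here.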

Additional observations from a re-analysis of the deposited data

How the results depend on the processing

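The number of members called lower (4) and higher (1) was the same in all 12 alternative fits, and those fits called between 4807 (without SRF KO replicate 1) and 7712 entries in all, against 6414 as reported. The range without 1 library was 4807 to 7629. Of the 4 tested members that never passed the threshold, Hand1 and Gata3 changed sign with single libraries left out, and Cdx2 and Gata2 did not. Hand1, between -0.34 and 0.16 over these 6 fits, turned positive without SRF KO replicate 3 (0.16) or WT replicate 3 (0.15). Gata3, between -0.19 and 0.59, turned negative without SRF KO replicate 1 (-0.09), SRF KO replicate 3 (-0.11), WT replicate 2 (-0.19) or WT replicate 3 (-0.15), for causes not tested. Other Rhox genes called lower, 1 as reported, numbered 2 with no filter, 2 when WT replicate 3 was left out and 0 when SRF KO replicate 3 was. Without SRF KO replicate 3, family relatives called lower numbered 2 (1 as reported) and those called higher 3 (2 as reported). Stem cell network genes called lower, 7 as reported, numbered 6 in most fits, DESeq2 among them, and 9 without WT replicate 2. Genes of differentiated trophoblast called lower, 5 as reported, numbered 4 with unscaled totals and 6 without WT replicate 2. The replicate numbers are shared by label only, and 4 of 6 libraries correlated best with their own number. With a replicate block 7712 entries were called, 3721 higher and 3991 lower, and no call of a member or of Srf (-3.12) changed. Depth limits Cdx2, Gata3 and Elf5, which had at most 21 counts in any library.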

Other observations

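Genes of primordial germ cells, in which Tfap2c is also active, were looked at beside it. Of 7 listed, 4 were lower in SRF KO, none was higher and 3 did not pass, with a median log2 fold change of -0.68. The share lower was 57.1%, where 20.7% of all entries tested were lower and 20.4% higher. Dppa3 fell from 32.0 ± 2.26 to 7.56 ± 0.377 CPM and Kit from 81.4 ± 3.13 to 50.9 ± 2.10 CPM (SD, n = 3), while Ddx4 did not pass at -0.17 (edgeR adjusted p 0.0808). Prdm1 and Prdm14, the other calls, had -0.92 and -0.69 and were named after their values were seen. Nanos3 and Dazl, named likewise, had 0.07 and 0.28 and did not pass (edgeR adjusted p 0.867 and 0.0589). Among 6 genes of blood and endothelium, where Gata2 is known to act, 3 of 5 tested were higher and 1 lower. These are 60% and 20%, beside 20.4% and 20.7% of all entries tested. Cdh5, the cadherin of endothelium, had 5, 7 and 5 counts in WT and 132, 114 and 128 in SRF KO, a log2 fold change of 4.56 (edgeR adjusted p 3.44e-08), and Runx1 rose by 2.36, while Pecam1 fell by 0.92 on the log2 scale (edgeR adjusted p 7.53e-09 and 4.74e-07). Of 7 neural genes, 4 were tested, none was higher and 1 was lower (25%, near the share of all entries). The 3 with the highest CPM, Tubb3, Sox1 and Pax6, did not pass (-0.01, 0.10 and -0.33).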
